A study of Mus musculus with 12 samples.

Results

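Expression of p53, its target genes and the upstream gene Cdkn2a was examined in CT-26 tumors of mice with or without swimming. The group holds 10 of the 30630 genes listed for every tumor. They are Trp53, which encodes p53, and Cdkn1a, Cdkn2a, Mdm2, Ccng1, Bbc3, Bax, Phlda3, Zmat3 and Gdf15, and they were chosen by symbol, with each Ensembl identifier matched to its symbol in the GENCODE M21 annotation. Each group had 10 mice, and RNA sequencing covered 12 tumors, 6 of the control group and 6 of the swimming group. CT-26 is a cultured colon carcinoma line of BALB/c mice, and it was injected with Matrigel under the skin of the flank of male BALB/c mice, which were 4 to 6 weeks old when bought and were injected after a period of adaptation. Swimming was done on 6 days of each week for 3 weeks, in 2 daily sessions of at most 30 min. Control mice carried the same injected cells without this training. All tumors came from 1 cell line, and RNA was taken from whole tumor tissue, so host cells were measured together with the tumor cells. Fewer cells of a type and less RNA per cell cannot be told apart in such samples.

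p53 is a transcription factor that is kept low by MDM2, a ubiquitin ligase which p53 itself switches on. DNA damage and other stresses stabilize the p53 protein, mostly without raising its mRNA, and p53 then induces genes that stop the cell cycle, trigger apoptosis or act in repair and metabolism. The p53 pathway is disabled in many colorectal carcinomas, and mRNA levels of its targets are often used as a readout of p53 activity.

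p53 binds DNA at a response element made of 2 half-sites of 10 bases. Promoters with a close match are shown here to tell which of the genes carry the element next to an annotated start. Sequences of the 250 bases before the gene start were found in RefSeq (GRCm38.p6) for 9 of the 10 genes, in 14 windows. The entry for Zmat3 was missing. Each window was searched on its own strand for both half-sites without a spacer, with the core C and G required in each, and the element reads the same on both strands. Cdkn1a and Ccng1 held an element with 1 mismatch among its 20 bases, and Bbc3 and Trp53 held one with 3 mismatches. Capitals mark the element, with 20 bases on each side.
Cdkn1a: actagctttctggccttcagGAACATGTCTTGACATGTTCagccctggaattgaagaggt
Ccng1: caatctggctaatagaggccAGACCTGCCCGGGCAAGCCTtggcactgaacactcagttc
Bbc3: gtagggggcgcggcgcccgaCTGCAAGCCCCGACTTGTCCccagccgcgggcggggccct
Trp53: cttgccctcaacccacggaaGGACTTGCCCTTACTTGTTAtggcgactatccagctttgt

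The printed sequences lie at chr17:29090908-29090967 for Cdkn1a and chr7:16309466-16309525 for Bbc3, both on the plus strand. The Trp53 sequence is at chr11:69580264-69580323 on the plus strand, and that of Ccng1 is at chr11:40755442-40755501 on the minus strand. The element began 51 bases before a RefSeq start of Cdkn1a, 75 in Trp53, 97 in Bbc3 and 195 in Ccng1. Cdkn1a and Bbc3 have further RefSeq starts without a close match. The best hit there had 7 mismatches for Cdkn1a, and 7 and 8 for Bbc3. Of 32851 RefSeq promoter windows of the same length, 0.0578% held a match with at most 1 mismatch and 1.14% one with at most 3. The other 5 genes with a window (Cdkn2a, Mdm2, Bax, Phlda3 and Gdf15) had more than 3 mismatches in these 250 bases, which do not cover introns or distal sites. A match describes the letters only, and binding of p53 was not measured.

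Levels are given in FPKM, a read number divided by gene length and by the depth of the tumor, so that genes can be compared per length. Cdkn1a had the highest mean over the 12 tumors with 103 FPKM, followed by Bax with 75.5, Phlda3 with 68.6, Trp53 with 37.1 and Ccng1 with 29.7. Mdm2 with 19.0 FPKM, Bbc3 with 14.2 and Zmat3 with 5.72 were lower. Cdkn2a and Gdf15 were at the bottom, with means of 0.769 and 0.261 FPKM. In this order, the ranges over tumors overlapped between Cdkn1a and Bax, Bax and Phlda3, Trp53 and Ccng1, Mdm2 and Bbc3, and Cdkn2a and Gdf15. No overlap was seen between Phlda3 and Trp53, Ccng1 and Mdm2, Bbc3 and Zmat3, or Zmat3 and Cdkn2a.

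The groups were then compared with limma on log2(FPKM + 1), over 19018 genes that reached 0.1 FPKM in 6 or more tumors. All 10 p53 pathway genes passed this filter, and Gdf15 did so with 11 of 12 tumors at or above 0.1 FPKM. No gene of the 19018 (0%) passed at an adjusted p of 0.05, with 0.204 as the lowest adjusted p. Without adjustment, 1058 genes (5.56% of all genes tested) were below 0.05, of which 591 (3.11%) were higher and 467 (2.46%) lower in the swimming group. None of the 10 p53 pathway genes had an unadjusted p below 0.05. The values of the groups overlapped for each of the 10 genes, while 28 of all genes tested (0.147%) had groups without overlap. Differences of the 10 genes lay between -0.09 and 0.14 on the log2 scale, with 3 genes higher and 7 lower in the swimming group, where 51.7% of all genes tested were higher. Their median was -0.02, against 0.0039 over all genes tested.

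**Figure D1:**
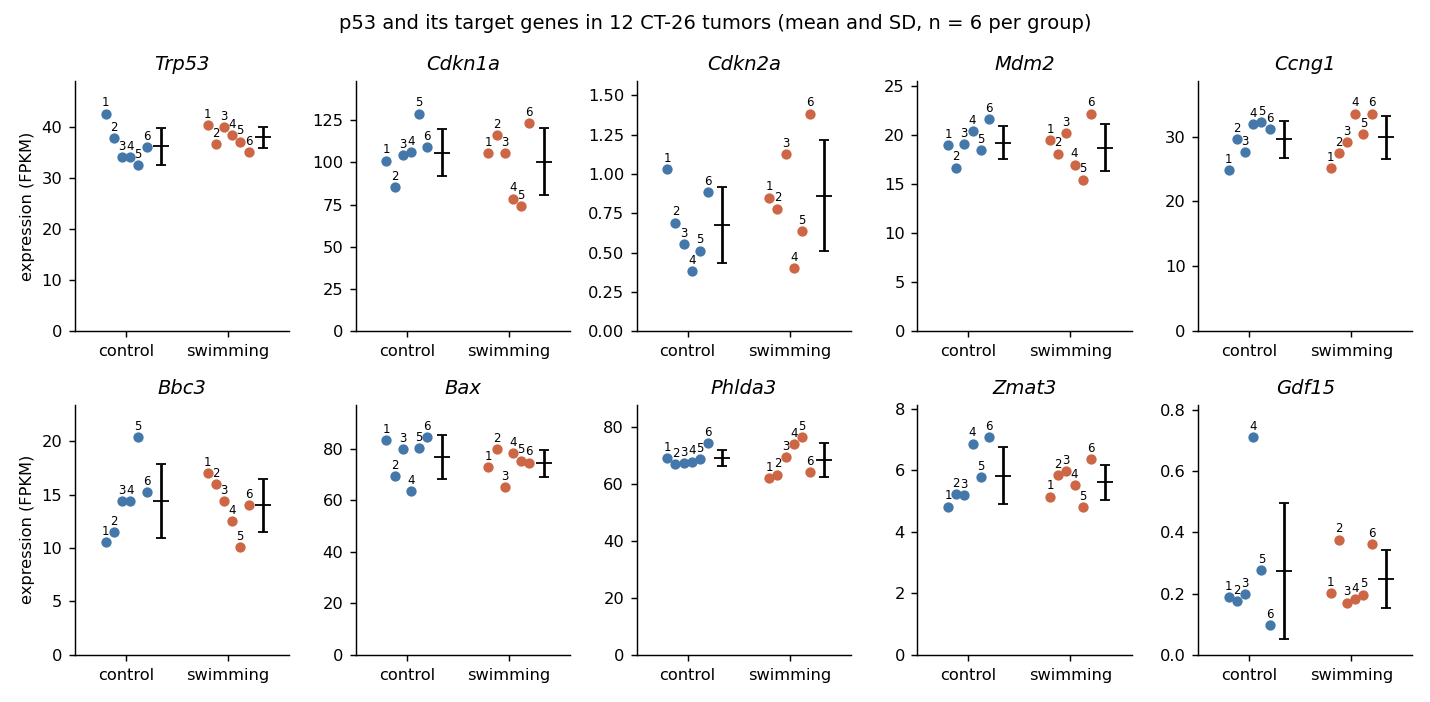
Expression of p53 and its target genes in FPKM (y axis, from 0) in 6 control (blue) and 6 swimming (orange) tumors, with the replicate number above each point and the mean with SD beside each group. The groups overlap in every panel, swimming 4 and 5 are the lowest tumors for Cdkn1a, and control 4 stands above all other tumors for Gdf15.

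Trp53 itself (chromosome 11, bases 69580359 to 69591873, plus strand, 6 annotated transcripts) varied little between tumors. Its level was lowest at 32.6, at a median of 35.2 and highest at 42.7 FPKM in control tumors, and 35.2, 37.8 and 40.5 FPKM in swimming tumors. All 6 swimming tumors were above the control median, but control 1 was the highest of all 12. The control mean was 36.3 ± 3.65 FPKM and the swimming mean 38.0 ± 2.03 FPKM (SD, n = 6 each). The log2 difference was 0.07 with a 95% interval from -0.07 to 0.21 (limma adjusted p = 0.931), and the exact permutation test gave p = 0.284. Control 1 had the highest fibroblast, adipocyte and B cell marker scores of the control group. It was also the highest Trp53 tumor, so leaving it out had to raise the difference. Trp53 then differed by 0.12 and was below an unadjusted limma p of 0.05 (0.0412). Leaving out any other tumor alone kept Trp53 above 0.05.

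Mdm2 (chromosome 10, bases 117688875 to 117710758, minus strand), the p53 target that closes the feedback loop, did not follow Trp53 in direction. In control tumors it ranged from 16.7 FPKM through a median of 19.1 to 21.6, and in swimming tumors from 15.5 through 18.8 to 22.2. The lowest and the highest tumor were both in the swimming group, swimming 5 and swimming 6, so that this group enclosed the other. The log2 difference was -0.04 (95% interval -0.22 to 0.14, limma adjusted p = 0.976; exact permutation p = 0.660).

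Cdkn2a (chromosome 4, bases 89274471 to 89294653, minus strand) encodes the INK4 inhibitor p16 and, from another reading frame, ARF. ARF blocks MDM2 and so acts upstream of p53, and Cdkn2a was not read as a p53 target. The deposited value puts the transcripts of p16 and ARF together. It was listed at a low level in every tumor, from 0.383 through a median of 0.622 to 1.03 FPKM in the control group and from 0.399 through 0.814 to 1.38 FPKM in the swimming group. The 2 lowest tumors, control 4 and swimming 4, came from different groups, and the highest was swimming 6. The mean of 0.862 ± 0.351 FPKM (SD, n = 6) in swimming tumors was above the 0.676 ± 0.244 FPKM (SD, n = 6) of control tumors, but the difference was within the spread (log2 difference 0.14, 95% interval -0.14 to 0.42, limma adjusted p = 0.933; exact permutation p = 0.323). At such levels, log2(FPKM + 1) understates a relative change, and with pseudocounts of 0.1 and 0.01 the log2 difference was 0.29 and 0.32. Without swimming 4 and 5, chosen after their values were seen, it was 0.28 and below an unadjusted limma p of 0.05 (0.0421). These were the 2 lowest swimming tumors for Cdkn2a, so leaving them out had to raise the difference.

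Genes next to Cdkn2a on chromosome 4 differed from it in level. Mtap, a methionine salvage enzyme gene, had means of 75.0 ± 6.70 and 79.7 ± 9.39 FPKM (SD, n = 6 each) in the control and swimming groups. Cdkn2b, which encodes the INK4 inhibitor p15, ranged from 0.345 to 1.01 FPKM, and Dmrta1 was listed at 0 in 11 of 12 tumors. Low levels were therefore seen at Cdkn2a and Cdkn2b, between genes with very high and near 0 values.

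Cdkn1a (chromosome 17, bases 29090976 to 29100727, plus strand) encodes p21, the cyclin-dependent kinase inhibitor through which p53 stops the cell cycle. Control tumors had a lowest value of 85.2, a median of 105 and a highest value of 129 FPKM, and swimming tumors had 74.2, 105 and 123 FPKM. The medians were nearly the same, and the lower mean of the swimming group (101 ± 19.9 against 106 ± 14.1 FPKM, SD, n = 6 each) came with swimming 4 and 5 at 78.6 and 74.2 FPKM, the lowest of all 12 tumors. The log2 difference was -0.09, with a 95% interval from -0.37 to 0.19 (limma adjusted p = 0.961, exact permutation p = 0.558). Without swimming 4 and 5 it was 0.10, but a rise was fixed in advance, since these tumors were picked for their low Cdkn1a. The exons of Cdkn1a overlap those of an antisense transcript, AC167363.2, and the strand setting of the counting was not given in the sources used here, so reads of either strand cannot be told apart.

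Ccng1 (chromosome 11, bases 40748552 to 40755311, minus strand) encodes cyclin G1, an early described p53 target that feeds back on p53 and MDM2. It ranged from 24.8 through a median of 30.4 to 32.3 FPKM in control tumors and from 25.1 through 29.8 to 33.5 FPKM in swimming tumors. The tumors labelled 1 were the lowest in both groups. The groups differed by 0.01 on the log2 scale (95% interval -0.16 to 0.19, limma adjusted p = 0.991; exact permutation p = 0.885).

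Among the apoptosis genes, Bbc3 (chromosome 7, bases 16308393 to 16318205, plus strand) encodes PUMA, a BH3-only protein that frees BAX and BAK from their inhibitors. Control tumors had a lowest value of 10.5, a median of 14.4 and a highest value of 20.4 FPKM, and swimming tumors had 10.1, 14.2 and 17.0 FPKM. Control 5 was the highest and swimming 5 the lowest tumor, a 2.02-fold range. The difference between groups was -0.03 on the log2 scale (95% interval -0.34 to 0.29, limma adjusted p = 0.987; exact permutation p = 0.885).

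Bax (chromosome 7, bases 45461697 to 45466898, minus strand) encodes the pore-forming protein that opens the outer mitochondrial membrane. Its values were 63.6, 80.1 and 84.4 FPKM (lowest, median, highest) in the control group and 64.9, 75.0 and 79.9 FPKM in the swimming group. None of the 6 swimming tumors was above the control median, although control 4 was the lowest of all. The log2 difference was -0.04 (95% interval -0.21 to 0.12, limma adjusted p = 0.968; exact permutation p = 0.593). An overlapping gene on the same strand, Gm45808, was listed at no more than 0.302 FPKM.

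Phlda3 (chromosome 1, bases 135766119 to 135769136, plus strand), which encodes a PH domain protein that restrains AKT, had the narrowest range of the 10 genes (1.23-fold). Its lowest, median and highest values were 66.9, 68.2 and 74.4 FPKM in control tumors and 62.1, 66.9 and 76.4 FPKM in swimming tumors. The swimming group was spread wider, and its 2 highest tumors were swimming 4 and 5, in which Cdkn1a was lowest. The groups differed by -0.02 on the log2 scale (95% interval -0.14 to 0.10, limma adjusted p = 0.981; exact permutation p = 0.736).

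Zmat3 (chromosome 3, bases 32334792 to 32366014, minus strand) encodes an RNA-binding zinc finger protein. It ranged from 4.82 through a median of 5.51 to 7.07 FPKM in the control group and from 4.81 through 5.69 to 6.38 FPKM in the swimming group. Control 4 and 6 were the only tumors above this highest swimming value. The log2 difference was -0.04 (95% interval -0.24 to 0.16, limma adjusted p = 0.978; exact permutation p = 0.680).

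Gdf15 (chromosome 8, bases 70629393 to 70632456, minus strand) encodes a secreted stress cytokine of the TGF-beta superfamily that is induced by p53 and by the integrated stress response. It was the lowest of the 10 genes in mean level but had the widest range (7.38-fold). Control tumors had a lowest value of 0.0961, a median of 0.194 and a highest value of 0.709 FPKM, and swimming tumors had 0.170, 0.200 and 0.376 FPKM. Control 4 was far above the other tumors, and the medians of the groups were close. The log2 difference was -0.02 (95% interval -0.22 to 0.19, limma adjusted p = 0.987; exact permutation p = 0.913).

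**Figure D2:**
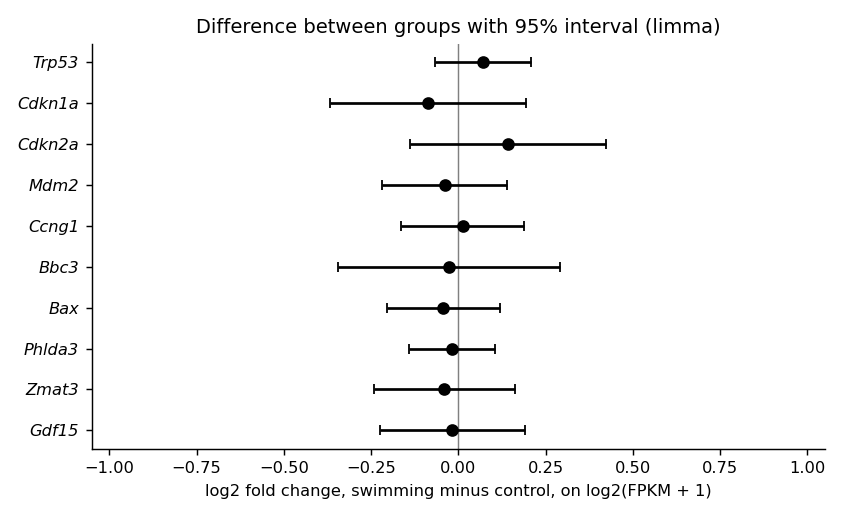
Difference between groups for the 10 genes (x axis, log2 fold change on log2(FPKM + 1), swimming minus control, with points for the estimate and bars for the 95% interval from limma). All 10 intervals hold 0, and they lie between -0.37 and 0.42.

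The 95% intervals bound the size of a difference. For Phlda3, the gene with the narrowest interval, they reach from 0.907-fold to 1.08-fold, and for Trp53 from 0.956-fold to 1.16-fold on the FPKM + 1 scale. Bbc3 reached from 0.788-fold to 1.22-fold and Cdkn1a from 0.775-fold to 1.14-fold. The highest upper limit was that of Cdkn2a (0.909-fold to 1.34-fold), whose level is so low that this scale understates a relative change.

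Whether targets, and Cdkn2a beside them, varied with the gene of p53 was asked over the 12 tumors. Trp53 was compared with each of the other 9 genes, and Cdkn1a with the remaining 8, which gave 17 relations. The relation of Cdkn1a with Bbc3 had Pearson's r of 0.77 (permutation p = 0.00313, adjusted p = 0.0428) and Spearman's rho of 0.727 (permutation p = 0.00976, adjusted p = 0.121). It was 0.86 within the control group, 0.80 within the swimming group and 0.71 without swimming 4 and 5, the 2 tumors farthest from the median of Cdkn1a. These genes, a cell cycle inhibitor and an apoptosis gene, thus varied together in both groups. Leaving out the farthest tumors narrows the range of Cdkn1a and can by itself bring r closer to none, here and in the relations below.

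Cdkn1a with Mdm2 had r of 0.75 (permutation p = 0.00503, adjusted p = 0.0428) and rho of 0.608 (permutation p = 0.0395, adjusted p = 0.224). Without swimming 4 and 5 r was 0.47, so the relation rested in part on these tumors, and it was 0.46 within the control and 0.86 within the swimming group. Cdkn1a with Zmat3 had r of 0.52 (permutation p = 0.0816, adjusted p = 0.277) and rho of 0.699 (permutation p = 0.0142, adjusted p = 0.121). The other relations of Cdkn1a did not pass the adjustment.

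Phlda3 ran the other way. Its r with Cdkn1a was -0.58 (permutation p = 0.0457, adjusted p = 0.194) and rho -0.371 (permutation p = 0.237, adjusted p = 0.402). The r was -0.90 within the swimming group and 0.32 within the control group, and -0.09 without swimming 4 and 5, so this relation rested on those tumors. Cdkn1a with Ccng1, the other gene with a 1-mismatch element above, had r of -0.04 (permutation p = 0.913, adjusted p = 0.972) and rho of 0.196 (permutation p = 0.542, adjusted p = 0.658). With Bax, r was 0.12 (permutation p = 0.714, adjusted p = 0.867) and rho 0.140 (permutation p = 0.667, adjusted p = 0.709).

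No relation of Trp53 passed the adjustment. With Ccng1, r was -0.61 (permutation p = 0.0376, adjusted p = 0.194) and rho -0.497 (permutation p = 0.106, adjusted p = 0.319). This r was -0.78 within the control group, -0.57 within the swimming group and -0.36 without control 1 and 5. With Cdkn1a r was -0.39 (permutation p = 0.211, adjusted p = 0.359) and rho -0.552 (permutation p = 0.0679, adjusted p = 0.289). With Bbc3 r was -0.49 (permutation p = 0.103, adjusted p = 0.287) and rho -0.322 (permutation p = 0.309, adjusted p = 0.478), but r was -0.87 within the control group and 0.30 within the swimming group. Without control 1 and 5 the latter relation was 0.03, so it rested on these tumors.

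**Figure D3:**
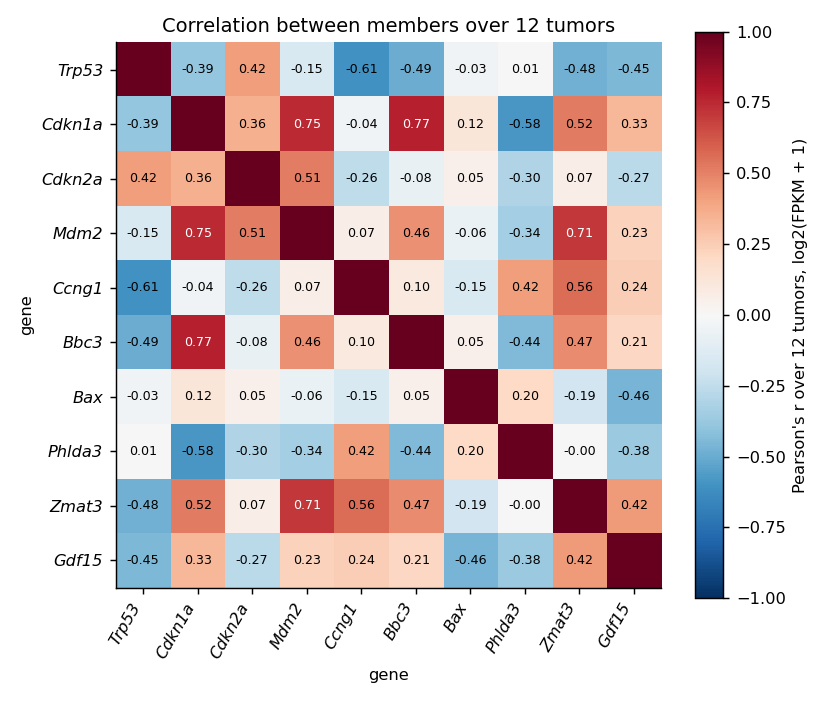
Pearson's r of log2(FPKM + 1) over 12 tumors for each pair of the 10 genes (colour from blue at -1 to red at 1, value in each cell). Cdkn1a with Bbc3 (0.77), Cdkn1a with Mdm2 (0.75) and Mdm2 with Zmat3 (0.71) are the 3 pairs at 0.7 or more, and the row of Trp53 holds mostly negative values.

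Over all 45 pairs of the 10 genes, r ranged from -0.61 to 0.77 with a median of 0.05. It was above 0 in 24 pairs and below 0 in 21. For comparison, 2.14% of 12799 genes had r of at least 0.7 with Cdkn1a and 4.14% had -0.7 or lower, while for Trp53 the shares were 0.992% and 1.28%. The p53 pathway genes therefore did not vary as 1 block over these tumors. Tumors shared neither library nor mouse, but cell composition and depth differed between them and their part in these relations was not tested.

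The genes with the pattern most like that of Trp53 over 12 tumors, among 12792 other genes with a mean of at least 1 FPKM, were Tubb5 (r = 0.85), Tstd3 (0.85), Prelid1 (0.85), Kdm5c (0.83) and Rnf167 (0.83). For Cdkn1a they were Stam (r = 0.91), Leprotl1 (0.91), Acot2 (0.91), Junb (0.89) and Avil (0.89). For Gdf15 they were Gm15899 (r = 0.84), Fat2 (0.82), Noc2l (0.82), Ell2 (0.82) and Mphosph6 (0.81). Gdf15 was near the floor and control 4 stood far above the other tumors, so this tumor weighs heavily in its values. An r without control 4 was not computed. All these genes were picked as the highest of 12792 over 12 tumors, so high values follow in part from the choice.

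Other genes of the pathway were read from lists. Of 35 other p53 targets, 34 were tested and Perp, at no more than 0.0661 FPKM, was not. Their median log2 difference was -0.004, with 16 higher and 18 lower (51.7% of all genes tested were higher). Below an unadjusted limma p of 0.05 was 1 gene (5.56% of all genes). This gene was Ckap2, a microtubule-associated protein, with 27.2 ± 2.88 FPKM (SD, n = 6) in control and 31.4 ± 4.12 FPKM (SD, n = 6) in swimming tumors (limma adjusted p = 0.889; exact permutation p = 0.0693). The most strongly expressed were Rps27l, a ribosomal protein paralog (log2 difference -0.07), and Ephx1, an epoxide hydrolase (0.11).

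Of 20 regulators of p53, 17 were tested, with a median log2 difference of 0.02 and no gene at an unadjusted p below 0.05 (5.56% of all genes). Trp63 and Trp73, which encode the relatives of p53, were too low to be tested (at most 0.162 and 0.0106 FPKM). Mdm4, the partner of Mdm2, had 7.26 ± 1.03 and 7.34 ± 0.252 FPKM (SD, n = 6 each) in the control and swimming groups. The ribosomal protein genes Rpl5 and Rpl11, whose products can bind MDM2, differed by -0.06 and -0.02 on the log2 scale. Among the genes around p53, as in Trp53 and Mdm2, no difference passed the test.

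In the BCL2 family, to which Bax and Bbc3 belong, 12 of 13 genes were tested, with a median log2 difference of -0.04. Of these 12, 3 were higher and 9 lower, where 51.7% of all genes tested were higher. Below an unadjusted limma p of 0.05 was 1 gene (5.56% of all genes). Bcl2l2, which encodes the anti-apoptotic protein BCL-w, had 13.4 ± 4.71 FPKM (SD, n = 6) in control and 8.52 ± 2.92 FPKM (SD, n = 6) in swimming tumors. Its log2 difference of -0.56 had an unadjusted limma p of 0.0417, but its adjusted p was 0.889 and the exact permutation p was 0.0779. Its exons overlap those of Gm20521 on the same strand, so the division of reads between them is uncertain. The anti-apoptotic Mcl1 and the pore-forming Bak1 were the most strongly expressed and differed by -0.004 and 0.06.

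Of the 15 cyclin, kinase and RB genes through which p21 acts, 11 were higher in the swimming group (51.7% of all genes tested were), with a median log2 difference of 0.08, and 2 were at an unadjusted p below 0.05 (5.56% of all genes). Cdk6, a G1 kinase, had 16.3 ± 1.48 FPKM (SD, n = 6) in control and 18.8 ± 1.47 FPKM (SD, n = 6) in swimming tumors, with all 6 swimming tumors above the control median (limma adjusted p = 0.889; exact permutation p = 0.0216). Rbl1, which encodes the RB relative p107, had 15.1 ± 1.79 and 17.3 ± 1.19 FPKM (SD, n = 6 each; limma adjusted p = 0.889; exact permutation p = 0.0390). Both passed only the unadjusted threshold, and Ccnd1 and Pcna, the most strongly expressed, differed by 0.09 and 0.07 on the log2 scale. Without swimming 4 and 5, which were picked for low Cdkn1a, the median was 0.02, with 10 genes higher and 0 at that threshold. Without control 1 and swimming 5 together it was 0.06, with 12 genes higher and 0 at that threshold. Among 7 INK4 and CIP/KIP inhibitor genes and neighbours of Cdkn2a, 6 were tested and all 6 had a difference above 0 (51.7% of all genes tested), with a median of 0.12, or 0.09 without swimming 4 and 5. Of these 6, 1 had an unadjusted limma p below 0.05 (5.56% of all genes) and 0 an adjusted one. Cdkn2c, which encodes the inhibitor p18, differed by 0.24 (limma adjusted p = 0.889; exact permutation p = 0.0541).

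Genes that p53 and p21 repress through the DREAM complex, most of them acting in mitosis, were higher in the swimming group in 14 of 15 cases (51.7% of all genes tested), with a median log2 difference of 0.19. These genes were highest on average in swimming 4 and 5, so leaving them out had to lower the mean difference. Without them the median was 0.03, with 13 genes higher and 0 at an unadjusted p below 0.05. Without control 1 and swimming 5 together it was 0.14, with 15 genes higher and 1 at that threshold (976 of all 18430 genes tested). With all tumors, 0 had an adjusted p below 0.05 and 2 an unadjusted one (5.56% of all genes). Mki67, a marker of cycling cells, had 39.1 ± 5.77 FPKM (SD, n = 6) in control and 48.3 ± 5.85 FPKM (SD, n = 6) in swimming tumors (limma adjusted p = 0.889; exact permutation p = 0.0216). Bub1, a spindle checkpoint kinase, had 15.3 ± 1.71 and 18.3 ± 2.65 FPKM (SD, n = 6 each; limma adjusted p = 0.889; exact permutation p = 0.0368). Cdc20 and Top2a, the most strongly expressed, differed by 0.14 and 0.18. These genes are expressed together in dividing cells and are not independent of each other.

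The integrated stress response list shares Sesn2 with the other p53 targets, and through this response Gdf15 is also induced. In this list, 9 of 10 genes were tested. Of all genes tested, 51.7% were higher in the swimming group, while 7 of these 9 were lower, with a median log2 difference of -0.19. These genes were lowest on average in swimming 4 and 5, so leaving them out had to raise the mean difference. Without them 5 of 9 were higher and the median was 0.01. Without control 1 and swimming 5 together, 7 of 9 were lower and the median was -0.11. Atf3, a stress-induced transcription factor, went the other way with 2.71 ± 0.352 FPKM (SD, n = 6) in control and 3.91 ± 1.07 FPKM (SD, n = 6) in swimming tumors (limma adjusted p = 0.889; exact permutation p = 0.0346). Atf3 was the only gene of this list at an unadjusted limma p below 0.05 (5.56% of all genes). Atf4 and Asns, the most strongly expressed, differed by -0.14 and -0.10.

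**Figure D4:**
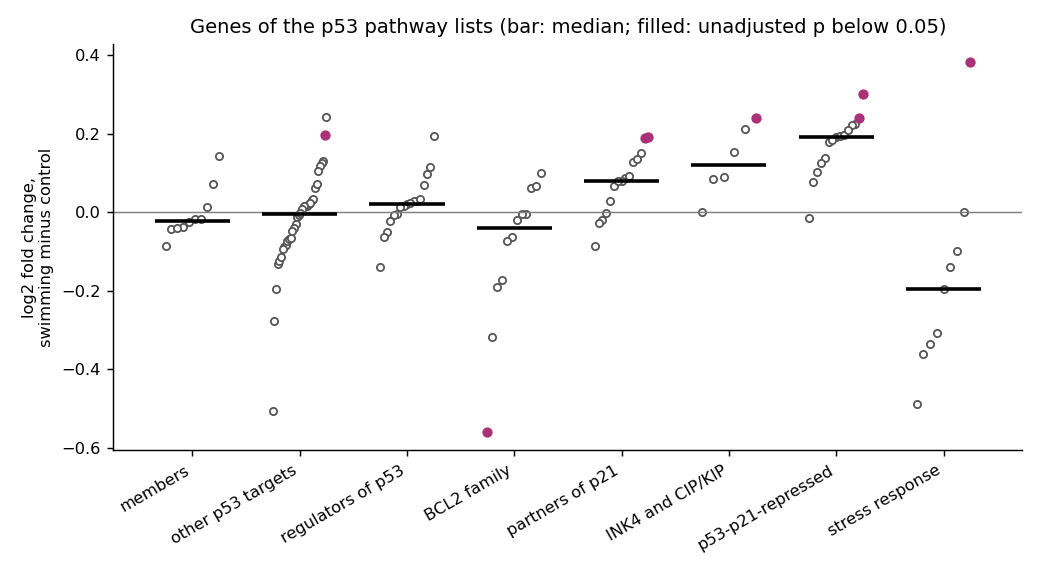
Log2 fold change of each tested gene (y axis, swimming minus control, on log2(FPKM + 1)) in the 10 genes and 7 lists around them (x axis). Circles are genes, filled where the unadjusted p is below 0.05, and bars are medians, which lie between -0.19 for the stress response and 0.19 for the repressed cell cycle genes.

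Cdkn1a was set against the lists as well. To score a list in a tumor, log2(FPKM + 1) of each gene was centred on its mean over the 12 tumors and then averaged over the list. With the repressed cell cycle genes, Cdkn1a had r of -0.78 (permutation p = 0.00435, adjusted p = 0.181 over 150 relations of the 10 genes with list scores) and rho of -0.65 (permutation p = 0.0264, adjusted p = 0.360). Within the groups it was -0.59 in control and -0.87 in swimming tumors. Without swimming 4 and 5, whose scores of 0.34 and 0.33 were the highest, it was -0.32, so the relation rested in part on these tumors.

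With the integrated stress response, Cdkn1a had r of 0.77 (permutation p = 0.00483, adjusted p = 0.181) and rho of 0.455 (permutation p = 0.141, adjusted p = 0.530), and r of 0.22 without swimming 4 and 5. These tumors had stress response scores of -0.50 each, and the other 10 tumors were between -0.08 and 0.29. Ddit3, which encodes the stress factor CHOP and was looked up after these scores were seen, was at 29.5 and 22.3 FPKM in swimming 4 and 5 and no lower than 44.4 FPKM in the other tumors. Swimming 4 and 5 thus had low Cdkn1a, low stress response genes, high Phlda3 and high repressed cell cycle genes.

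**Figure D5:**
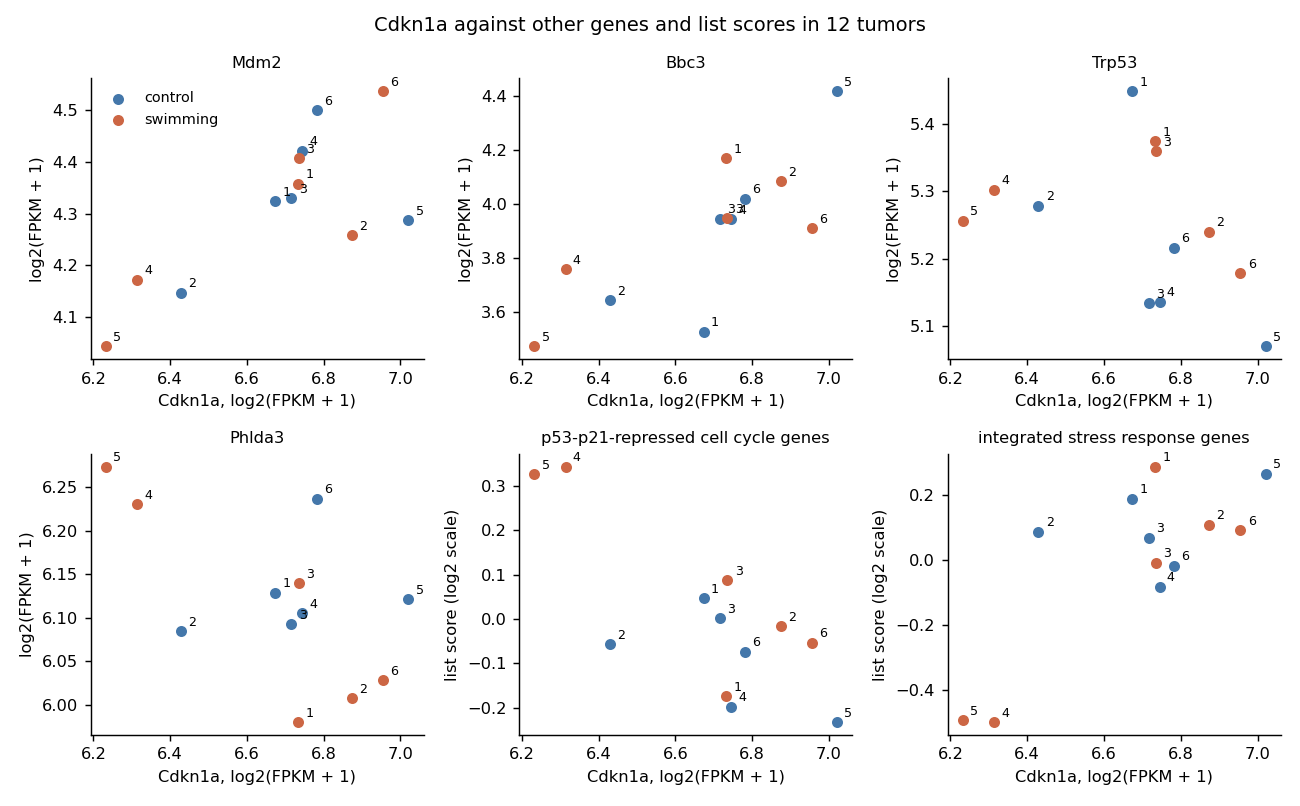
Cdkn1a (x axes, log2(FPKM + 1)) against Mdm2, Bbc3, Trp53 and Phlda3 (y axes, log2(FPKM + 1)) and against the scores of the repressed cell cycle genes and the integrated stress response (y axes, log2 scale) in control (blue) and swimming (orange) tumors, numbered by replicate. Swimming 4 and 5 lie at the left end of every panel, and without them r falls from 0.77 to 0.71 for Bbc3 and from 0.77 to 0.22 for the stress response.

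Cell type markers were compared with the 10 genes in the same way. The keratin gene Krt20, which marks colon epithelium, was at 99.8 to 194 FPKM. Epcam, Vil1, Cdx2, Lgr5 and Cdh1 were below 0.5 FPKM in every tumor. Thus 5 of the 9 colon epithelial markers found were close to 0. Krt8, Krt18 and Krt19 were the others, and all 9 summed ranged from 134 to 323 FPKM in control and 119 to 168 FPKM in swimming tumors. Control 4 had the highest score (0.99). Zmat3 with this score had r of 0.68 (permutation p = 0.00716, adjusted p = 0.204), and 0.41 without control 4 and 6. Summed fibroblast markers (8 genes) ranged from 188 to 807 FPKM in the control group and from 223 to 780 FPKM in the swimming group. Summed macrophage markers (9 genes) ranged from 1422 to 2027 and from 1488 to 1974 FPKM, and skeletal muscle markers (9 genes) from 3.26 to 189 and from 2.60 to 263 FPKM. Summed T and NK cell markers (9 genes) ranged from 18.6 to 40.0 FPKM in the control group and from 12.3 to 52.6 FPKM in the swimming group. Of these, 8 of 9 were higher in swimming tumors (51.7% of all genes tested were), with a median log2 difference of 0.23. Cd3d, Cd3g and Cd8a were at an unadjusted limma p below 0.05 (5.56% of all genes), and 0 at an adjusted one. Without swimming 4 and 5 the median was 0.13, and only Cd3d and Cd3g stayed below the unadjusted threshold. Without control 1 and swimming 5 together the median was 0.23. Cd3e, Cd3d, Cd3g and Cd4 were then below that threshold (976 of all 18430 genes tested). The part of T and NK cells in the higher cell cycle genes was not tested.

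Of the 150 relations, only that of Bbc3 with the fibroblast score passed the adjustment on r, with r of -0.87 (permutation p = 0.00024, adjusted p = 0.0360), although its rho of -0.748 did not (permutation p = 0.00666, adjusted p = 0.259). It was -0.89 within the control group, -0.84 within the swimming group and -0.80 without control 5 and swimming 5. Bbc3 was thus lower in tumors with more fibroblast RNA in both groups, but this direction was not particular to fibroblasts. Of the other cell type scores, only the colon epithelial one had a positive r with Bbc3 (0.22). The rest ran from -0.48 for skeletal muscle to -0.69 for endothelial markers, and none passed the adjustment. With the repressed cell cycle genes r was also -0.69. Cdkn1a with the fibroblast score had r of -0.69 (permutation p = 0.0127, adjusted p = 0.204) and rho -0.741 (permutation p = 0.00721, adjusted p = 0.259), and r was -0.65 without swimming 4 and 5. Trp53 with it had r of 0.68 (permutation p = 0.0159, adjusted p = 0.216) and rho 0.755 (permutation p = 0.00621, adjusted p = 0.259), and its r was 0.99 within the control group, 0.17 within the swimming group and 0.41 without control 1 and 5. The part of fibroblast content in the relation of Cdkn1a with Bbc3 was not tested.

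Depth relative to control 1, read from the steps between low values, was lowest in control 2 with 0.699, and all others lay at 0.878 to 1. Between 22293 and 23974 genes were above 0 per tumor, and tumors correlated with each other at 0.975 to 0.991 over genes. Absolute depth is unknown with FPKM values, so that no counting error is given, and Gdf15 and Cdkn2a are the least precise of the 10 genes.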

How the data were processed

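RNA of 12 CT-26 tumors was sequenced after removal of ribosomal RNA. Per the submitters' processing notes, reads were mapped with HISAT2 2.0.5 and quantified with StringTie 1.3.3. The authors deposited FPKM per gene and tumor, already divided by gene length and depth. Their methods name a human genome and the notes also a mouse build, while the identifiers are mouse Ensembl genes, so that coordinates (GENCODE M21, GRCm38) were matched by identifier only. A symbol was found for 30542 of 30630 genes.

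Groups were taken from the labels. Labels of each group share replicate numbers, but tumors came from different mice. log2(FPKM + 1) was compared in limma 3.58.1 (R 4.3.3) with a mean-variance trend and Benjamini-Hochberg adjustment for genes that reached 0.1 FPKM in 6 or more tumors. For single genes, a two-sided exact permutation test used the 924 divisions of 12 tumors into 6 and 6, whose smallest p is 0.00216. Correlations were tested with 100000 permutations, two-sided (scipy 1.17.1). The fit was checked on simulated data.

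The 10 genes and all lists were chosen with earlier results of these data known. Genes named are the 10, the genes of each pathway list at an unadjusted p below 0.05, its 2 with the highest mean FPKM, and the 5 most like Trp53, Cdkn1a and Gdf15. Perp, Trp63, Trp73, Mdm4, Cdkn2b, Dmrta1 and Ddit3 and the marker genes were named outside this rule. For Ddit3, which has 2 identifiers, the one of the full-length gene was used. Trp53rk and Cdx1 were not found under these symbols. Alternatives were pseudocounts of 0.1 and 0.01, no filter or one of 1 FPKM, quantile normalization, trimmed mean scaling, no trend, sample weights, a replicate block and leaving out each tumor. Leaving out control 1 and swimming 5 together, and swimming 4 and 5 together, was added after seeing the data.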

Additional observations from a re-analysis of the deposited data

Results flagged for a closer look

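Among 54 sets of 6 values of a group, 8 had a tumor far from the others, where chance gives about 1 in 20, or 2.7. Of the 10 p53 pathway genes, Phlda3 was highest in control 6 with 74.4 FPKM, against 69.0 FPKM in the next control tumor. Gdf15 was highest in control 4 with 0.709 FPKM, against 0.276 FPKM in the next. The other 6 were scores of gene lists on the log2 scale. In swimming 5 the score of the INK4 genes and neighbours of Cdkn2a was 0.24, the macrophage score 0.38 and the B cell score 0.32, each far above the other swimming tumors. In control 1 the adipocyte score was 2.17 and the B cell score 1.21, far above the other control tumors. Swimming 1 had a T and NK cell score of -0.45, far below the other swimming tumors. These values were not tested further.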

How the results depend on the processing

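With 23 alternatives, 228 values of the 10 genes were computed. Of these, 198 kept their direction and their side of an unadjusted p of 0.05, 27 changed sign without passing it, none larger than 0.112, and 3 passed it. Cdkn2a and Gdf15 were not tested with a filter of 1 FPKM. The values that passed were those of Trp53, 0.12 without control 1 and 0.12 without control 1 and swimming 5 together, and of Cdkn2a, 0.28 without swimming 4 and 5, so that the count of the 10 genes at an unadjusted p below 0.05 went from 0 to 1 in each case. Control 1 was the highest tumor for Trp53, and swimming 4 and 5 were the lowest swimming tumors for Cdkn2a. Leaving them out therefore had to raise these differences. Gdf15 changed sign to 0.0148 and 0.0639 with pseudocounts of 0.1 and 0.01 and to 0.0209 with sample weights. Ccng1 changed to -0.0165 with sample weights and to -0.0417 without control 1 and swimming 5, where Mdm2 became 0.00952. Without swimming 4 and 5, which had been picked for their low Cdkn1a, the differences of Cdkn1a (0.0968), Mdm2 (0.0554), Ccng1 (-0.0380), Bbc3 (0.112), Zmat3 (0.00988) and Gdf15 (0.0160) changed sign. The difference of Cdkn2a was 0.14 and went to 0.285 and 0.318 with pseudocounts of 0.1 and 0.01. Over the fits that left out 1 tumor, log2 differences ranged from 0.0426 to 0.119 for Trp53, -0.150 to -0.00527 for Cdkn1a, 0.0678 to 0.222 for Cdkn2a, -0.0873 to 0.0117 for Mdm2, -0.0353 to 0.0587 for Ccng1, -0.104 to 0.0744 for Bbc3, -0.0951 to -0.00520 for Bax, -0.0509 to 0.00775 for Phlda3, -0.0837 to 0.0108 for Zmat3 and -0.0572 to 0.0710 for Gdf15. The cause of these changes was not tested.

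The count of all genes at an adjusted p below 0.05 was 0, 1 with sample weights, 1 without swimming 4 and 5, and 0 to 3 when 1 tumor was left out, with 3 without control 4 and 2 without swimming 1. With the replicate number as a block, 0 of all genes had an adjusted p below 0.05, 892 an unadjusted one, and 0 of these were among the 10 genes. Same-numbered tumors did not vary together (mean r of -0.12 over numbers, from -0.32 to 0.01). This cannot tell what the numbers stand for, which the labels do not say. After group means were subtracted, 1 in place of 2 relations between genes passed the adjustment, since Cdkn1a with Mdm2 (r = 0.74) had an adjusted p of 0.0507. Of 51 correlation values, 2 changed sign, Bax with Trp53 (0.0236) after subtraction of group means and Phlda3 with Trp53 (-0.0178) with quantile normalization.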
